A study of Mus musculus with 8 samples.

Results

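The genes described here encode the proteins of the mitochondrial ribosome, the mitoribosome, in mouse gastrocnemius muscle without the branched-chain aminotransferase BCATm. They were taken from the deposited FPKM table as every symbol made of Mrpl (large subunit) or Mrps (small subunit), a number and an optional letter, without pseudogenes, using the row with the highest mean where a symbol had several. The rule found 76 genes, 47 Mrpl and 29 Mrps, among 38741 symbols. Of these, 75 had a mean of at least 1 FPKM over the 8 mice and were tested among 11118 genes, 46 Mrpl and 29 Mrps. The remaining member, Mrpl47, the counterpart of bacterial protein L29, was listed at 0 in all 8 mice. It shares exon bases with Ndufb5 and Actl6a on the opposite strand, and no level can be given for it. The lowest tested member was Mrpl19, with a mean of 3.98 FPKM, so no member lay near the limit of 1 FPKM.

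The mitoribosome stands in the mitochondrial matrix and translates only the few messages of the mitochondrial genome, all of which encode core subunits of respiratory complexes I, III and IV and of the ATP synthase. Its RNAs come from mitochondrial DNA, whereas its proteins are encoded in the nucleus, made in the cytosol and imported. Some of these proteins have counterparts in bacterial ribosomes and others are found only in mitochondria. In skeletal muscle, the particle supplies the respiratory chain that feeds contraction.

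The mice were 4 male knockouts (KO) homozygous for the Bcat2tm1.2Clyn allele, 10 to 11 weeks old and 15 to 24 g in weight, and the controls were 4 male wild-type (WT) mice, 9 to 10 weeks old and 22 to 25 g, all of a C57BL6 background. BCATm is the mitochondrial enzyme that takes the amino group from leucine, isoleucine and valine. Mice of both genotypes and their dams were free to choose between a standard chow and a purified food lacking branched-chain amino acids, so the diet was shared and its uptake per mouse is not given. The labels name no tissue limit for the allele. WT columns carry the labels' mouse numbers, whereas the KO columns, KO5 to KO8, could not be tied to the age or weight of one mouse.

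Bcat2 itself had 2.89, 5.26, 2.91 and 2.09 FPKM in KO mice, against 83.0, 42.7, 46.0 and 41.2 FPKM in WT mice (limma adjusted p = 0.00245). The skeletal muscle markers Ckm, Myh4, Tnnt3, Atp2a1 and Mylpf, 5 of the 6 listed (Acta1 was not analysed here), summed to between 53465 and 88267 FPKM in KO mice and between 53497 and 63129 FPKM in WT mice, so the labelled tissue was present in every library. Read depth relative to WT2 ran from 0.548 to 1.21 in KO libraries and from 0.437 to 1.23 in WT libraries. Adipocyte markers stood apart in KO6 and WT1, at 8266 and 15703 FPKM in sum against 614 to 2030 FPKM in the other 6 mice, and keratinocyte markers in KO6, at 472 FPKM against at most 2.67 FPKM elsewhere. In KO8 the median of all genes lay 0.35 below the mean of the 8 mice on the log2 scale, and in WT3 it lay 0.16 above it. Both libraries weigh on the mitoribosomal values and are named beside them. In whole muscle, fewer cells of a type and less RNA per cell cannot be told apart.

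Levels of mitoribosomal transcripts spanned a wide range. FPKM are per length, yet log2 mean FPKM fell with log2 coding length over the 75 tested members (Pearson's r = -0.61). Whether this bears on the order of genes was not tested, so that order is approximate. The median member had a mean of 42.2 FPKM over the 8 mice, 44.1 FPKM among Mrpl and 36.5 FPKM among Mrps. Mrpl33, the counterpart of the small bacterial protein L33, was highest, with a mean of 467 FPKM. Its row spans chromosome 5 from 31596935 to 31701972 under a gene identifier that the GENCODE annotation of the same build does not hold, so what the row counts is less sure than for other members. Next came Mrps21 at 351 FPKM, the stalk protein Mrpl12 at 282 FPKM, and Mrpl42 and Mrpl53, both specific to mitochondria, at 249.98 and 245 FPKM. Mrpl53 shares 695 exon bases with the protein-coding Gm42688 on the same strand, so its level is uncertain. At the low end stood Mrpl35 at 10.4 FPKM, Mrpl39, which resembles a threonyl-tRNA synthetase, at 8.93 FPKM, Mrps2 at 6.94 FPKM and Mrpl19 at 3.98 FPKM. Neighbours in this order can overlap in their spread: Mrpl42 had 224 ± 22.9 FPKM in KO and 276 ± 11.5 FPKM in WT mice, and Mrpl53 had 279 ± 25.2 FPKM in KO and 212 ± 71.0 FPKM in WT mice (SD, n = 4 each). No tested member was listed at 0 in any mouse.

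The question of the comparison was whether transcripts of this particle differ in muscle that lacks BCATm. None of the 75 tested members passed the threshold of 0.05 (limma-trend, Benjamini-Hochberg over all 11118 genes), where 0.027% of all genes, 3 in number, passed, Bcat2 among them. The lowest adjusted p of a member was 0.48. At an unadjusted limma p under 0.05, 2 members had higher values in KO mice, Mrps24 and Mrps18c, beside 2.99% of all genes, and 4 had lower values, Mrpl16, Mrpl10, Mrps17 and Mrpl42, beside 7.33% of all genes. KO and WT mice did not overlap in 3 members with higher KO values, Mrps24, Mrps18c and Mrpl33, beside 2.07% of all genes, and in 3 with lower KO values, Mrps17, Mrpl16 and Mrpl42, beside 4.68%. Taken in both directions these are 6 members, beside 6.75% of all genes, so the members' share is near the background. With 1 mouse left out, 2 to 6 members had an unadjusted p under 0.05 and higher KO values (6 without WT1 and 6 without WT2, beside 4.46% and 3.49% of all genes), and 2 to 6 had one and lower KO values (2 without KO8 and 6 without KO6, beside 3.67% and 8.33%).

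Fold changes were small next to their error. Among the 75 members, log2 fold changes of FPKM + 1, KO minus WT, ran from -0.56 in Mrps5 to 0.65 in Mrps24, and 48 lay within 0.25 of 0. The 95% interval held 0 in 69 members and reached 0.37 to either side of the estimate in the median member. It lay wholly within 0.5 of 0 for 25 members, and for the others it took in differences of 0.5 or more.

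**Figure D1:**
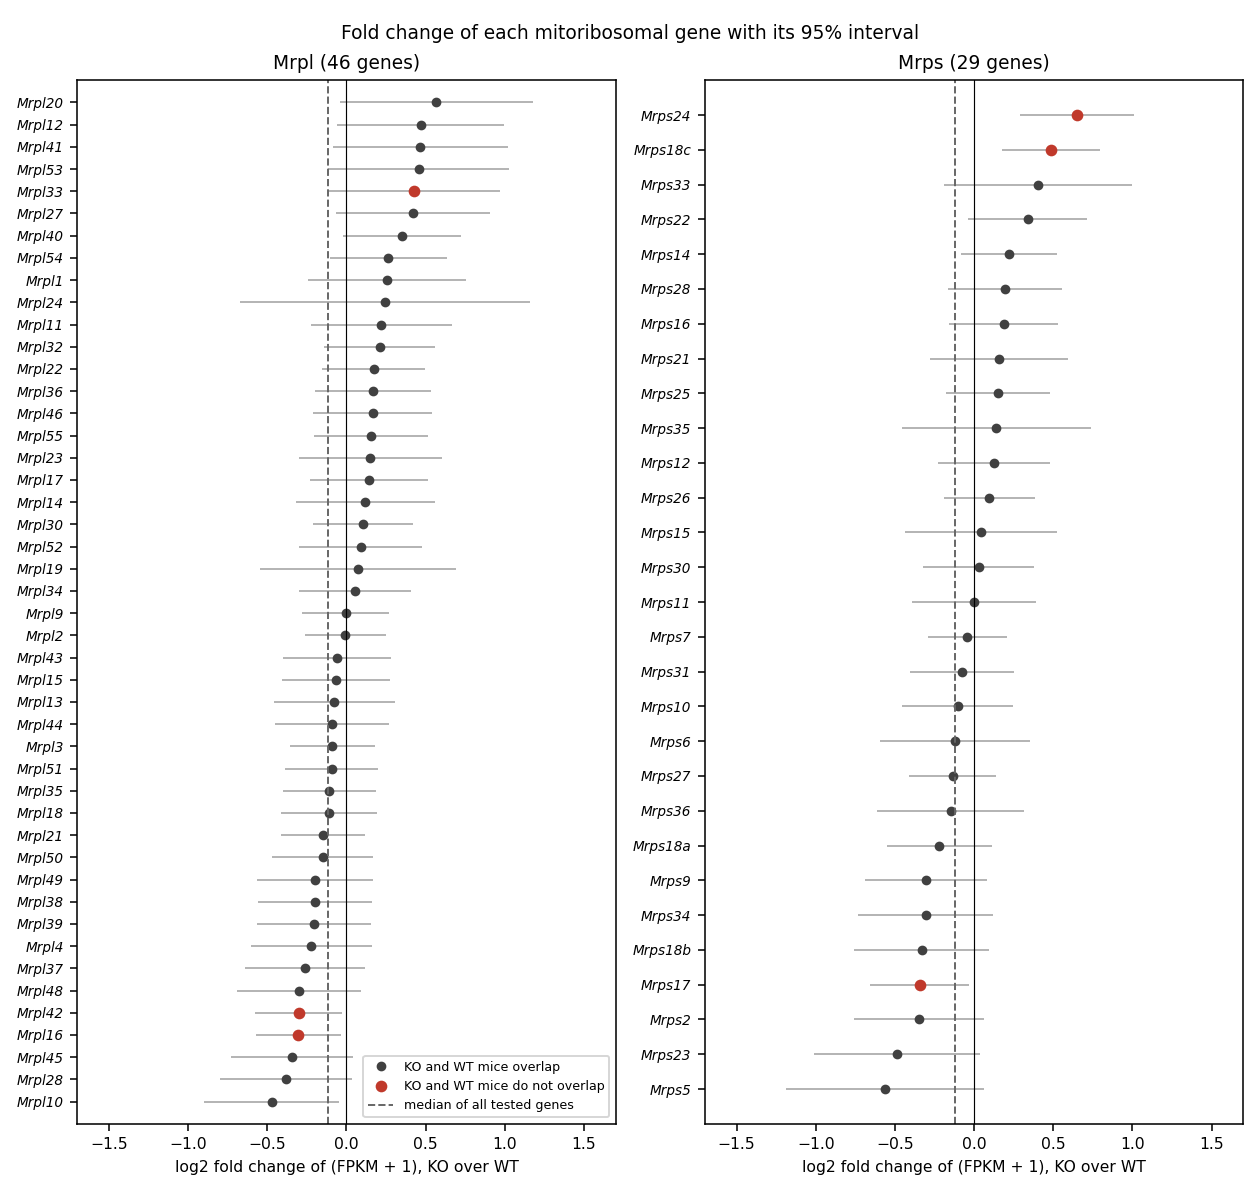
Log2 fold change of FPKM + 1, KO over WT, of each of the 46 Mrpl and 29 Mrps genes tested, with its 95% limma interval as a bar. The dashed line is the median of all 11118 tested genes at -0.12. Points run from -0.56 (Mrps5) to 0.65 (Mrps24), and the 6 red points are the genes whose 4 KO and 4 WT mice did not overlap.

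Among members with higher KO values, Mrps24 had the smallest unadjusted p of all 75. It encodes uS3m, the counterpart of bacterial S3, which lines the channel where mRNA enters the small subunit. Its levels were 163, 133, 156 and 171 FPKM in KO mice, against 110.0, 113, 78.3 and 96.2 FPKM in WT mice. Every KO mouse lay above every WT mouse, and WT3 was the lowest of the 8. The log2 fold change was 0.65 (SE 0.16, 95% interval 0.29 to 1.01, limma adjusted p = 0.48), and the exact 2-sided permutation p was 0.0286, the smallest that 4 mice against 4 allow. That permutation p follows from the lack of overlap and adds nothing to it. Mrpl33, Mrpl16 and Mrpl42 had the same one. Without WT3 the log2 fold change was 0.54. Mrps24 (ENSMUSG00000020477, mm10 chromosome 11, 5703983 to 5715680) shares 226 exon bases with Urgcp on the same strand, so the split of reads between these genes is uncertain.

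Mrps18c encodes bS18m, the small subunit's own form of bacterial S18. It had 196, 162, 145 and 162 FPKM in KO mice, against 127, 126, 111 and 108 FPKM in WT mice. The groups did not overlap, with KO5 highest and WT4 lowest. The log2 fold change was 0.49 (SE 0.14, limma adjusted p = 0.48) and 0.46 without WT3. Mrps18c shares 250 exon bases with Gm43511 on the same strand. Both other forms of S18 had lower mean values in KO mice, without a call. Mrps18b, whose protein is mS40 of the small subunit, had means of 21.4 and 27.4 FPKM in KO and WT mice, and Mrps18a, whose protein structures place in the large subunit, had 48.7 and 56.3 FPKM. In Mrps18a the WT mice spanned only 54.9 to 58.8 FPKM, while the KO mice ran from 42.1 to 61.1 FPKM on both sides of them.

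Mrpl33 had 513, 547, 497 and 549 FPKM in KO mice, against 486, 465, 229 and 454 FPKM in WT mice. Although the groups did not overlap, 3 of the WT mice lay just under the lowest KO mouse and WT3 stood far below. Its log2 fold change of 0.43 (SE 0.24, limma adjusted p = 0.501) was 0.17 without WT3, so most of its size came with 1 library. Mrpl33 shares 261 exon bases with Gm43809 on the same strand.

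On the other side, Mrps17 encodes uS17m, which binds the small subunit rRNA early in bacterial assembly. It had 28.6, 34.4, 30.9 and 24.9 FPKM in KO mice, against 41.3, 38.7, 35.5 and 35.7 FPKM in WT mice. KO6 came close to the lowest WT mouse and KO8 was the lowest of all. Its log2 fold change was -0.34 (SE 0.14, limma adjusted p = 0.48) and -0.27 without KO8.

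Mrpl16, whose protein uL16m lies beside the tRNA sites of the large subunit, had 30.3, 29.4, 27.0 and 25.0 FPKM in KO mice, against 33.1, 33.5, 35.6 and 36.4 FPKM in WT mice. The mice of each genotype lay close together and the gap between genotypes was narrow. Its log2 fold change was -0.30 (SE 0.12, limma adjusted p = 0.48). Mrpl42, a mitochondria-specific protein and one of the highest members, had 233, 237, 237 and 190.1 FPKM in KO mice, against 273, 260.5, 287 and 282 FPKM in WT mice. KO8 was well below the other KO mice, which were alike. The log2 fold change of -0.30 (SE 0.12, limma adjusted p = 0.48) was -0.22 without KO8. Median-ratio scaling, under which the median of all genes was 0.00 in place of -0.12, brought Mrps17 to -0.19, Mrpl16 to -0.15 and Mrpl42 to -0.15, without a change of direction. Under it, 4 members had an unadjusted limma p under 0.05 and higher KO values, beside 6.76% of all genes under that scaling, and 0 had one and lower KO values, beside 4.91%.

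**Figure D2:**
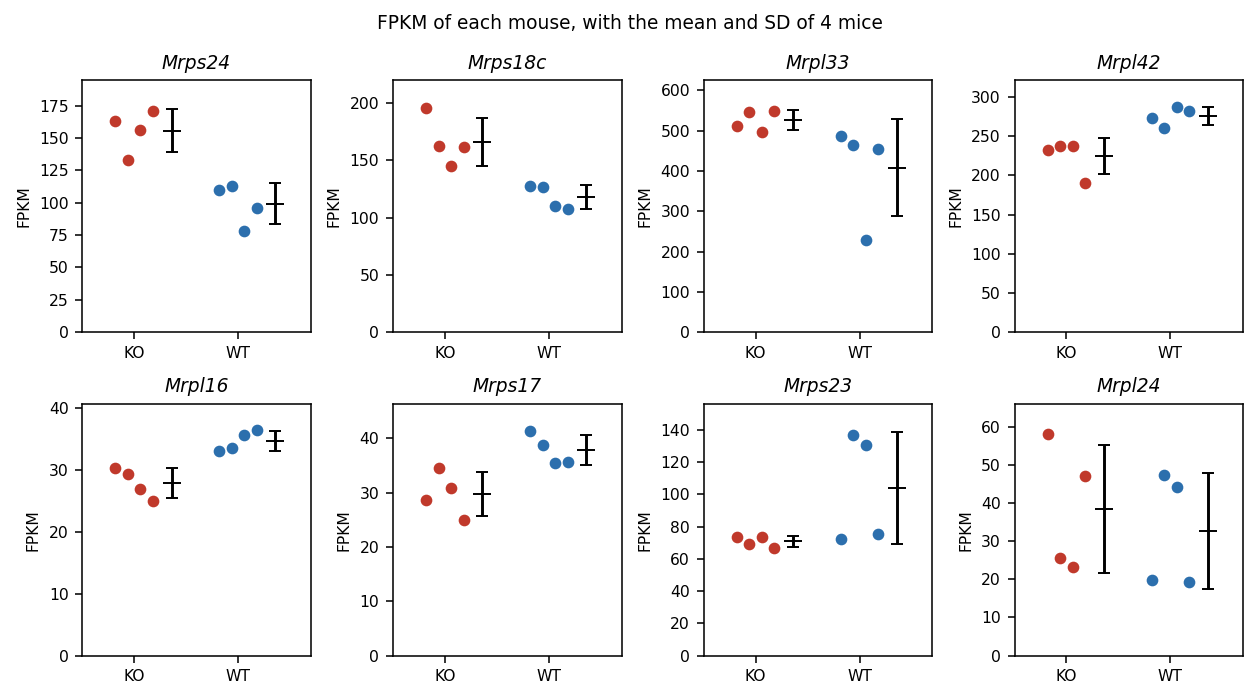
FPKM of each mouse (points, KO left and WT right in each panel) with the mean and SD of 4 mice, for the 6 mitoribosomal genes whose groups did not overlap and for Mrps23 and Mrpl24. In the first 6 panels the groups are apart, narrowly in Mrpl33 but for WT3 at 229 FPKM, while Mrps23 and Mrpl24 each show 2 separate levels within a genotype.

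The large subunit stalk is the arm that recruits translation factors. Its repeated protein bL12m is encoded by Mrpl12 and its anchor uL10m by Mrpl10. Mrpl12 had 351, 275, 285 and 385 FPKM in KO mice, against 273, 293, 148 and 243 FPKM in WT mice. The groups overlapped, with KO5 and KO8 above all WT mice and WT3 far below. Its log2 fold change was 0.47 (SE 0.23, limma adjusted p = 0.484), and 0.25 without WT3. Mrpl10 had 14.2, 14.4, 19.4 and 11.8 FPKM in KO mice, against 19.6, 17.1, 26.6 and 21.2 FPKM in WT mice. Here WT3 was the highest mouse, 3 of the KO mice lay below all WT mice, and KO7 lay among them. On the log2 scale the fold change was -0.47 (SE 0.19, limma adjusted p = 0.48), and -0.36 without WT3. The same library was thus lowest for one stalk gene and highest for the other.

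Other large subunit genes with higher KO values showed the same low WT3. Mrpl20, the counterpart of L20, an early assembly protein in bacteria, had 192, 229.6, 168 and 184 FPKM in KO mice, against 185, 145, 73.7 and 140.1 FPKM in WT mice. Mrpl41, specific to mitochondria, had 102, 91.6, 72.3 and 86.0 FPKM in KO mice, against 78.9, 69.5, 37.9 and 75.2 FPKM in WT mice. Mrpl27, whose bacterial counterpart L27 reaches toward the peptidyl transferase centre, had 76.3, 82.9, 72.6 and 89.3 FPKM in KO mice, against 77.0, 74.9, 40.7 and 53.9 FPKM in WT mice. In all 3 the groups overlapped and WT3 was the lowest mouse. Their log2 fold changes were 0.57, 0.47 and 0.42 with limma adjusted p-values of 0.484, 0.487 and 0.487, and 0.30, 0.23 and 0.24 without WT3. Mrpl40, another mitochondria-specific protein, had 35.5 ± 4.47 FPKM in KO and 27.8 ± 4.99 FPKM in WT mice (SD, n = 4 each), again with WT3 lowest at 23.2 FPKM and with overlap.

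Of large subunit genes with lower KO values, Mrpl28 had 35.8, 40.4, 38.6 and 34.6 FPKM in KO mice, against 63.3, 57.3, 40.7 and 38.8 FPKM in WT mice. WT1 and WT2 stood above the other 6 mice, which were alike. Mrpl45, whose protein sits at the exit of the peptide tunnel and fastens the particle to the inner membrane, had 13.0, 13.0, 14.3 and 9.51 FPKM in KO mice, against 16.5, 13.4, 19.6 and 14.9 FPKM in WT mice. Of the WT mice, WT2 alone lay within the KO range. The log2 fold changes of Mrpl28 and Mrpl45 were -0.38 (SE 0.18) and -0.35 (SE 0.17), each with a limma adjusted p of 0.484. Mrpl39, one of the lowest members, had 8.21 ± 1.12 FPKM in KO and 9.65 ± 1.73 FPKM in WT mice (SD, n = 4 each), which overlapped.

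In the small subunit, Mrps5 had the largest negative fold change of the 75. It encodes uS5m, the counterpart of a bacterial protein that bears on decoding accuracy. Its levels were 16.2, 37.4, 31.4 and 19.8 FPKM in KO mice, against 38.4, 30.5, 48.2 and 33.4 FPKM in WT mice. KO5 and KO8 were far below the WT mice, while KO6 and KO7 lay within their range. The log2 fold change was -0.56 (SE 0.27, limma adjusted p = 0.484).

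Mrps2 and Mrps9 encode counterparts of bacterial S2 and S9. Mrps2 had 5.97 ± 1.06 FPKM in KO and 7.91 ± 1.68 FPKM in WT mice, and Mrps9 had 15.5 ± 3.20 FPKM in KO and 19.1 ± 1.97 FPKM in WT mice (SD, n = 4 each). Both overlapped between genotypes, with KO8 the lowest mouse in each. Mrps22, a mitochondria-specific protein of the small subunit in which human mutations cause mitochondrial disease, had 24.7, 29.3, 32.3 and 29.6 FPKM in KO mice, against 27.5, 23.9, 17.4 and 22.7 FPKM in WT mice. WT1 alone among WT mice lay within the KO range, and the log2 fold change was 0.34 (SE 0.16, limma adjusted p = 0.484). Among the highest and lowest small subunit genes not yet named, Mrps21 had 367 ± 38.1 FPKM in KO and 335 ± 82.1 FPKM in WT mice, Mrps16 had 152 ± 17.7 and 134 ± 18.6 FPKM, and Mrps27, a pentatricopeptide repeat protein, had 13.7 ± 0.96 and 15.2 ± 1.38 FPKM in KO and WT mice (SD, n = 4 each). All of these overlapped.

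In a few members, grouped here after their values were seen, single mice or sets of mice stood apart. Mrps23, a mitochondria-specific protein, had 73.8, 69.4, 73.6 and 66.5 FPKM in KO mice, against 72.5, 137, 131 and 75.4 FPKM in WT mice. WT2 and WT3 stood at nearly the same high level, and the other 6 mice, KO and WT alike, within 66.5 to 75.4 FPKM. Both high mice were thus WT, and WT1 alone among WT mice lay within the KO range. The log2 fold change of Mrps23 was -0.49, without a call. Mrpl24, the counterpart of L24, had 58.1, 25.5, 23.4 and 47.0 FPKM in KO mice, against 19.9, 47.3, 44.2 and 19.4 FPKM in WT mice. It split into a high set of KO5, KO8, WT2 and WT3 and a low set of KO6, KO7, WT1 and WT4, with 2 mice of each genotype in each. Mrpl24 shares 594 exon bases with Rrnad1 on the opposite strand, and the library kit did not mark strand. Mrpl19 had 8.08 FPKM in KO5, 3.28, 3.14 and 2.62 FPKM in the other KO mice, and 3.78, 3.55, 3.58 and 3.80 FPKM in WT mice. It shares 1962 exon bases with Gcfc2 on the opposite strand.

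At the other end, Mrps7 and Mrpl2, which encode rRNA-binding proteins of the small and the large subunit, varied least over the 8 mice. Mrps7 had 38.2, 35.9, 36.3 and 33.4 FPKM in KO mice, against 37.5, 38.5, 36.4 and 35.6 FPKM in WT mice, a coefficient of variation of 4.51%. That of Mrpl2 was 4.77%, with 70.1 ± 4.60 FPKM in KO and 70.3 ± 2.25 FPKM in WT mice (SD, n = 4 each). The median member had a coefficient of variation of 16.0% over all mice, 13.0% within KO and 15.9% within WT mice. Mrps36 bears a small subunit symbol, but its protein is KGD4, which joins the parts of the 2-oxoglutarate dehydrogenase complex. It had 36.6, 41.3, 32.3 and 23.7 FPKM in KO mice, against 30.3, 36.7, 46.5 and 34.1 FPKM in WT mice, with KO8 lowest and WT3 highest and overlap between the groups.

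Mrpl and Mrps genes had nearly the same median. The median log2 fold change was 0.02 over 46 Mrpl genes and 0.00 over 29 Mrps genes, beside -0.12 over all 11118 tested genes. Relative to that all-gene median, the Mrpl median was 0.14, with 33 of 46 genes above it, and the Mrps median 0.12, with 18 of 29 above it. These became 0.04 (25 of 46) and 0.02 (15 of 29) with no filter on low values, 0.07 and 0.04 with array weights, and 0.09 and 0.05 under quantile scaling. The Mrpl median minus the Mrps median was 0.02. Log2 fold changes were above 0 in 23 Mrpl and 15 Mrps genes, 38 in all, beside 36.4% of all genes, and in 55 of the 75 under median-ratio scaling, beside 50.3% of all genes under it. Summed over its genes, Mrpl came to 4050.1, 3891, 3549 and 3815 FPKM in KO mice, against 3762, 3784, 2874 and 3495 FPKM in WT mice, and Mrps to 2052, 1988, 1836 and 1832 FPKM in KO mice, against 1868, 1896, 1551 and 1823 FPKM in WT mice. In both sums WT3 was lowest and KO5 highest, and the groups overlapped. The ratio of the Mrpl sum to the Mrps sum, 1.99 ± 0.07 in KO and 1.95 ± 0.07 in WT mice (SD, n = 4 each), differed by less than the spread between mice. Placing Mrps18a and Mrps30 with the large subunit, as structures do, gave relative medians of 0.13 for the large and 0.12 for the remaining Mrps genes. With Mrps36 also left out, since its protein is KGD4, the 26 small subunit genes had 0.14. The order of the subunits thus depended on the placement of a few genes.

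The relative medians depended on WT3 and KO8. Relative to all genes of the same mouse, the median deviation of Mrpl genes was 0.16, -0.06, -0.01 and 0.26 in KO mice, against -0.01, 0.05, -0.24 and 0.02 in WT mice. That of Mrps genes was 0.09, -0.04, -0.03 and 0.20 in KO mice, against 0.02, 0.04, -0.25 and 0.01 in WT mice. KO8 was highest and WT3 lowest in both families, KO5 came next to KO8, and the other 5 mice were within 0.06 of 0. Without WT3 the medians over genes were 0.08 for Mrpl and 0.03 for Mrps relative to all genes, and without KO8 they were 0.08 and 0.03. Without KO6 and WT1, the mice with fat transcripts, they were 0.18 and 0.17. WT3 held the lowest value of 28 of the 75 members (37.3%), beside 13.0% of all genes, and KO8 that of 26 (34.7%), beside 50.5% of all genes. The high relative values of KO8 thus stood beside a low median of all its genes, and the low ones of WT3 beside a high one.

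**Figure D3:**
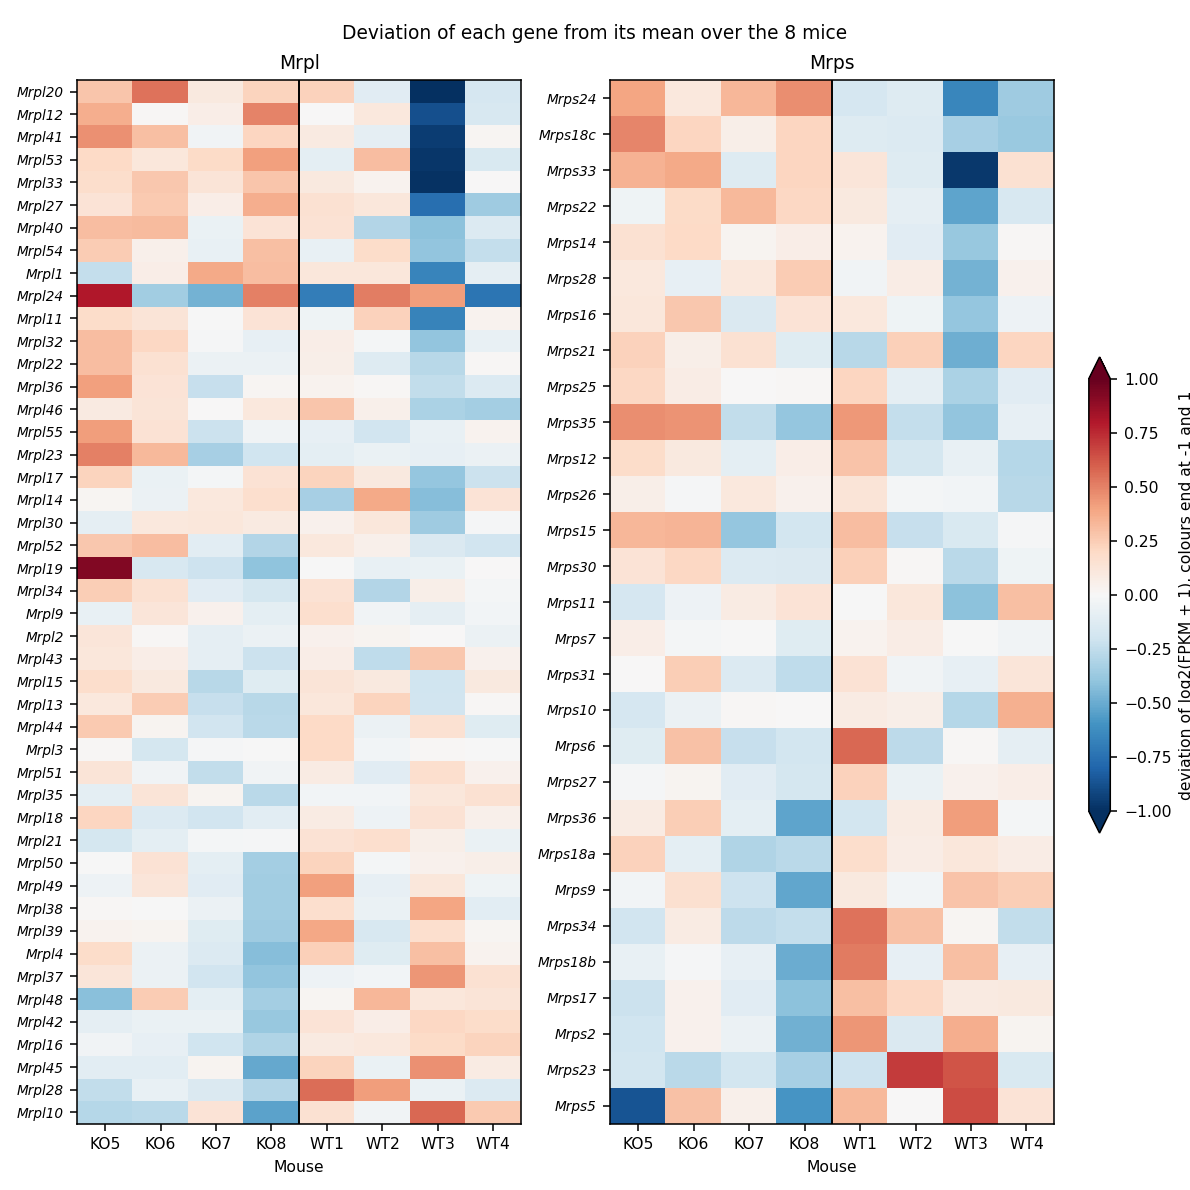
Deviation of log2(FPKM + 1) from the mean of the 8 mice for each tested gene (rows, from the highest fold change at the top to the lowest) and each mouse (columns, KO left of the line and WT right of it); colours end at -1 and 1. WT3 is dark blue in the upper rows and red in many lower rows, KO8 is blue in the lower rows, and Mrpl24 shows its 2 sets of mice.

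Fold change within the particle went with the length and the level of the transcript. Lengths here are coding lengths from GENCODE, chosen after it was seen that a few annotated transcripts with long untranslated ends misstate the length of the message. Across the 75 members the log2 fold change had Pearson's r = -0.41 and Spearman's rho = -0.39 with log2 coding length, and r = 0.49 and rho = 0.50 with log2 mean FPKM. With log2 transcript length in place of coding length, r was -0.26 and rho -0.29 for the members, and rho was -0.28 for all tested genes with a length. With the length and GC trend removed, r with coding length was -0.22 and r with level 0.32. Coding length and level were themselves related (r = -0.61 over the same 75 genes), all points share the same 8 libraries, and genes are not independent replicates. Over all tested genes with a coding length (10077), r with coding length was -0.31, and over all 11118 genes r with level was 0.09. Among members of up to 576 coding bases the median log2 fold change was 0.15, with 26 of 38 above 0, and among longer ones it was -0.09, with 12 of 37 above 0.

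In classes of coding length, other genes had similar medians. Members with up to 429 coding bases had a median log2 fold change of 0.16 (14 of 19 above 0), and 719 other genes of that length one of 0.18 (68.7% above 0). Between 435 and 576 bases the medians were 0.12 for 19 members and 0.06 for 626 other genes. Between 588 and 849 bases they were -0.07 for 18 members and -0.00 for 1431 other genes. From 873 bases upward they were -0.09 for 19 members and -0.17 for 7226 other genes. Members of this last class end at 1326 bases, while its other genes have no upper limit, so their lengths are not matched. Both series of medians descend with length, and the members' medians lie now above and now below those of other genes. After a trend on transcript length and GC content was taken out of each mouse, the relative medians were -0.02 for Mrpl and -0.05 for Mrps. In WT3, members with shorter coding parts had a median of -0.49 relative to all its genes and those with longer ones -0.15, and in KO8 these medians were 0.37 and 0.11. WT3 was the lowest mouse for 20 of the 38 shorter members and for 8 of the 37 longer ones.

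**Figure D4:**
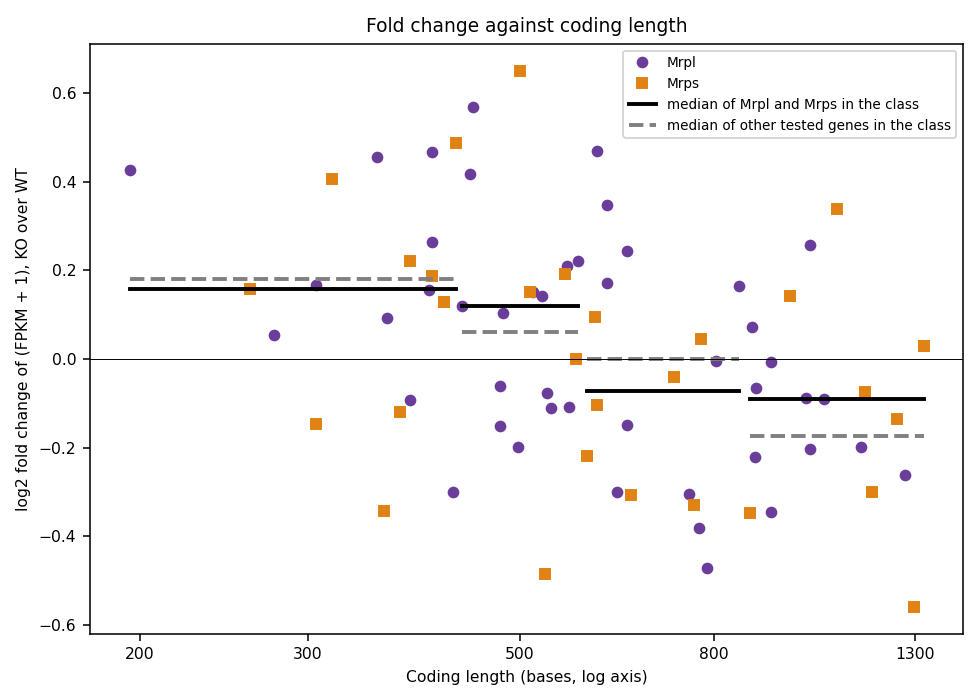
Log2 fold change of FPKM + 1, KO over WT, against coding length in bases (log axis) for 46 Mrpl genes (circles) and 29 Mrps genes (squares). Solid lines are the medians of these genes in 4 length classes, from 0.16 in the shortest to -0.09 in the longest, and dashed lines the medians of all other tested genes in the same classes, from 0.18 to -0.17, the last class also taking in genes longer than the line drawn.

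By descent, 45 members classed as shared with bacteria had a median log2 fold change of 0.07, with 35 above the all-gene median. The 29 members classed as mitochondrial had one of -0.09, with 16 above it. This class took in Mrps18a and Mrps18b, although both are forms of S18, so it is not made up only of proteins without a bacterial counterpart. The 2 members with the smallest p and higher KO values, Mrps24 and Mrps18c, are of bacterial descent, as are 2 of the 3 that did not overlap and were lower, Mrps17 and Mrpl16. Without WT3, 28 of the 45 and 15 of the 29 lay above the all-gene median, and with the length and GC trend removed 23 and 11 did. The comparison is a description, and the classes differ in length and level too.

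Promoters were read to see what the members share in sequence. RefSeq (GRCm38.p6) gave a window of 250 bases before to 50 after the start for 67 of the 76 genes. On either strand, CCGGAAG, the core bound by ETS factors such as GABP (NRF2), was found in 24 of the 67 (35.8%), beside 20.6% of 7801 tested genes and 9.93% of all 27025 genes with a window. The NRF1 motif, spelt GCGCA, then any base, then GCGC, was found in 12 (17.9%), beside 12.5% and 5.19%. AAGATGGC, the core bound by YY1, was found in 12 (17.9%), beside 5.51% and 3.19%. The ETS and YY1 cores can overlap by the letters AAG. At least 1 of the 3 motifs stood in 61.2% of the members, beside 33.7% of tested genes and 16.4% of all genes. Members with the ETS core had a median log2 fold change of 0.09 (24 genes) and those without it -0.01 (42 genes), those with the NRF1 motif 0.10 (12 genes) and without it -0.00 (54 genes), and those with the YY1 core -0.07 (12 genes) and without it 0.05 (54 genes). A match is a run of letters and not a site.

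The bases before the RefSeq start are shown for the pair with the smallest p among higher members, Mrps24 (chr11:5707702-5707951, reverse strand) and Mrps18c (chr5:100798509-100798758, forward strand), and for 3 of the 5 members with at least 2 matches before the start, Mrpl53 (chr6:83108858-83109107, forward strand), Mrpl32 (chr13:14613038-14613287, reverse strand) and Mrpl45 (chr11:97315466-97315715, forward strand). Each runs 5′ to 3′ on the gene's strand and ends at the base before the start, with matches to the 3 motifs in capitals.
Mrps24: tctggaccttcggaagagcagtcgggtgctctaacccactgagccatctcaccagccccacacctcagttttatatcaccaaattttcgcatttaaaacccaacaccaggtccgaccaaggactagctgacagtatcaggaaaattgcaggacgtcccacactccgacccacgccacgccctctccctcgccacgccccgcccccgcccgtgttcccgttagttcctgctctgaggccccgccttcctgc
Mrps18c: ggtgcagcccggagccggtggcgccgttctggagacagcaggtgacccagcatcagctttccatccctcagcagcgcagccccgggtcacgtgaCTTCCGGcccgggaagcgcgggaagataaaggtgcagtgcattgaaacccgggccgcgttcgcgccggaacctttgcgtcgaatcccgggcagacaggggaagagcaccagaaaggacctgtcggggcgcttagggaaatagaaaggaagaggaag
Mrpl53: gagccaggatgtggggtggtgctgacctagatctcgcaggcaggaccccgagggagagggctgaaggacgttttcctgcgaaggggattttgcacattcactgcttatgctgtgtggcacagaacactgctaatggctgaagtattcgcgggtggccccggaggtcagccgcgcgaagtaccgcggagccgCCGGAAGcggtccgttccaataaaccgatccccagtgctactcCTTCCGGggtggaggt
Mrpl32: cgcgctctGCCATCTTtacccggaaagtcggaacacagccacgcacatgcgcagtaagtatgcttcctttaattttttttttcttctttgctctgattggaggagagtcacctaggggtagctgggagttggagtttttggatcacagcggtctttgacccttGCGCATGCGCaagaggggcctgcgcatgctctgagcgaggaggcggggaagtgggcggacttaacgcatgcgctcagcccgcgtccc
Mrpl45: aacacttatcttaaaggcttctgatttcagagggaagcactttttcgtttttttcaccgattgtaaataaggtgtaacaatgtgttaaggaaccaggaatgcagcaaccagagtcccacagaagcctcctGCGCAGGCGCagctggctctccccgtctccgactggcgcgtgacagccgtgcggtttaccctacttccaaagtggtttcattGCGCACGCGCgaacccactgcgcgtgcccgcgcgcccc
Mrps24 had no match in these bases and a YY1 core after the start, and Mrps18c had 1 ETS core at 156 to 150 bases before it. Mrpl53 held 2 ETS cores, at 59 to 53 and 16 to 10 bases before the start, and its KO and WT mice overlapped, at 272, 256, 271 and 315 FPKM in KO mice, against 222, 293, 121 and 213 FPKM in WT mice. Mrpl32 held an NRF1 motif at 87 to 78 bases and a YY1 core at 242 to 235 bases before the start. Mrpl45 held 2 NRF1 motifs, at 120 to 111 and 38 to 29 bases before the start, with a further one after it, and had lower KO values without a call. Of the 6 members whose groups did not overlap, only Mrps18c had a match wholly before the start, and 28 of the 66 tested members with a window had one. This count leaves out the bases after the start, where Mrps24 and Mrpl42 each had a YY1 core, and the ETS core of Mrpl33, which straddles the start. Over the whole window, 61.2% of the members had at least 1 match.

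Many members share their start with a neighbour. Of the 76 genes, 32 (42.1%) had a protein-coding gene starting within 1000 bases on the other strand, 23 Mrpl and 9 Mrps, beside 16.4% of 10046 tested protein-coding genes. In 1 case the partner is itself a member: Mrpl46 (chromosome 7, 78775236 to 78783531) and Mrps11 (chromosome 7, 78783119 to 78792989) run in opposite directions and share 173 exon bases. Mrpl46 had 29.0 ± 1.07 FPKM in KO and 26.2 ± 5.75 FPKM in WT mice, and Mrps11 25.6 ± 2.51 FPKM in KO and 25.9 ± 5.27 FPKM in WT mice (SD, n = 4 each). The pair had similar levels and neither gene differed beyond its spread. Exons of 32 members overlap another annotated gene, a protein-coding one in 23, and 36.1% of tested protein-coding genes do, so values of these members are uncertain where the counting could not separate the reads.

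The mitoribosome holds further proteins whose genes bear other names, and 7 of them were measured. Their median log2 fold change was 0.31. An unadjusted p under 0.05 was found for 3 with higher KO values and 1 with lower ones, beside 2.99% and 7.33% of all genes, and none passed the threshold. Chchd1 (mS37) had 968, 869, 867 and 1054 FPKM in KO mice, against 612, 714, 279.9 and 667 FPKM in WT mice. The groups did not overlap and WT3 was again far below. Gadd45gip1 (mL64) had 17.8, 15.3, 17.5 and 17.3 FPKM in KO mice, against 12.3, 15.7, 10.3 and 11.5 FPKM in WT mice, where WT2 lay within the KO range. The log2 fold changes were 0.81 (SE 0.28) for Chchd1 and 0.43 (SE 0.15) for Gadd45gip1, both with a limma adjusted p of 0.48. Without WT3 the list median relative to all genes was 0.29, against 0.43 with all mice.

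A list of 16 tested genes of mitochondrial translation, called translation factors here, was mixed. It also took in Lrpprc, Slirp, Oxa1l and Letm1, which are not translation factors in the strict sense. None of the 16 passed the threshold. Their fold changes lay below the all-gene median in 12 and above it in 4, among them Slirp at 0.62 and Mtif3 at 0.26, and their median was -0.25 relative to it. An unadjusted limma p under 0.05 was found for 7 with lower KO values, Lrpprc among them, beside 7.33% of all genes, and for 0 with higher ones. Of these 7, 2 remained without KO8, 3 without WT3, 4 without WT4 and 2 without both KO6 and WT1. The shares of all genes with lower KO values there were 3.67%, 3.53%, 5.18% and 6.77%. The count was 8, with all 7 among them, without WT2 and without KO6, beside 8.17% and 8.33% of all genes. Endothelial markers also had lower values in KO mice: Pecam1, Cdh5 and Kdr, none of them at 0, summed to 17.0 to 35.5 FPKM in KO mice and 31.2 to 51.0 FPKM in WT mice, 3 of 3 had a negative fold change and 2 of 3 an unadjusted limma p under 0.05. The part of this difference in the values of the translation factors was not tested. Taco1, an activator of translation of the Cox1 message, had 13.2, 13.1, 18.8 and 12.2 FPKM in KO mice, against 21.8, 17.9, 27.7 and 24.8 FPKM in WT mice. Mtif2, the initiation factor, had 4.59, 5.27, 6.28 and 4.23 FPKM in KO mice, against 7.01, 6.73, 7.63 and 8.91 FPKM in WT mice. KO7 lay within the WT range for Taco1, and the groups did not overlap for Mtif2. The log2 fold changes were -0.65 (SE 0.19) and -0.50 (SE 0.15), both with a limma adjusted p of 0.48. By mouse, their relative median ran from -0.17 to -0.03 in KO mice and from 0.02 to 0.19 in WT mice. Without WT3 it was -0.18 over genes, and with the length and GC trend removed -0.20.

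Genes of mitoribosome assembly and rRNA processing (24 tested) had a median 0.01 above that of all genes. An unadjusted p under 0.05 was found for 2 with higher and 3 with lower KO values, beside 2.99% and 7.33% of all genes. Without WT3 it was found for 1 and 1, beside 1.83% and 3.53%. Fastkd2, an RNA-binding protein needed for the large rRNA, had 84.1, 69.8, 61.5 and 60.3 FPKM in KO mice, against 60.1, 12.3, 10.1 and 11.6 FPKM in WT mice. WT1 stood at the level of the KO mice and the other WT mice far below, and the log2 fold change of 1.92 (SE 0.50, limma adjusted p = 0.48) did not pass. Nsun4, the methyltransferase of the small rRNA, had 5.04, 5.46, 5.12 and 4.18 FPKM in KO mice, against 6.74, 5.88, 8.74 and 7.24 FPKM in WT mice, which did not overlap (log2 fold change -0.45, limma adjusted p = 0.48).

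Among 15 tested genes of mitochondrial transcription and DNA maintenance the median lay 0.03 above that of all genes. Peo1, the helicase Twinkle, had 3.30, 3.40, 3.34 and 2.42 FPKM in KO mice, against 4.75, 4.50, 6.99 and 5.14 FPKM in WT mice, without overlap (log2 fold change -0.62, limma adjusted p = 0.48). Under the symbol Twnk, Peo1 shares 507 exon bases with the member Mrpl43 on the opposite strand, so its level is uncertain. Ppargc1a, the coactivator of mitochondrial biogenesis, had 2.92, 2.43, 2.98 and 2.99 FPKM in KO mice, against 3.00, 3.64, 4.55 and 4.37 FPKM in WT mice (log2 fold change -0.34, limma adjusted p = 0.484), where the groups did not overlap but KO8 and WT1 were all but level. Of 16 tested mitochondrial aminoacyl-tRNA synthetases, which charge the tRNAs the mitoribosome reads, 13 lay below the all-gene median, and their median was -0.08 relative to it. Sars2, for serine, had 2.86 and 4.52 FPKM on average in KO and WT mice, and Aars2, for alanine, 3.76 and 4.80 FPKM, both without overlap and neither past the threshold (limma adjusted p = 0.48 and 0.484). Side by side, and without a test, the medians relative to all genes were 0.54 for 77 cytosolic ribosomal proteins and 0.17 for 78 respiratory complex subunits. Under quantile scaling these were 0.29 and -0.11, and with the length and GC trend removed 0.33 and -0.06, so the sign for the respiratory subunits depended on the processing. All 37 genes of the mitochondrial genome, the rRNAs of the mitoribosome among them, were listed at 0 in every mouse and were not analysed here.

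**Figure D5:**
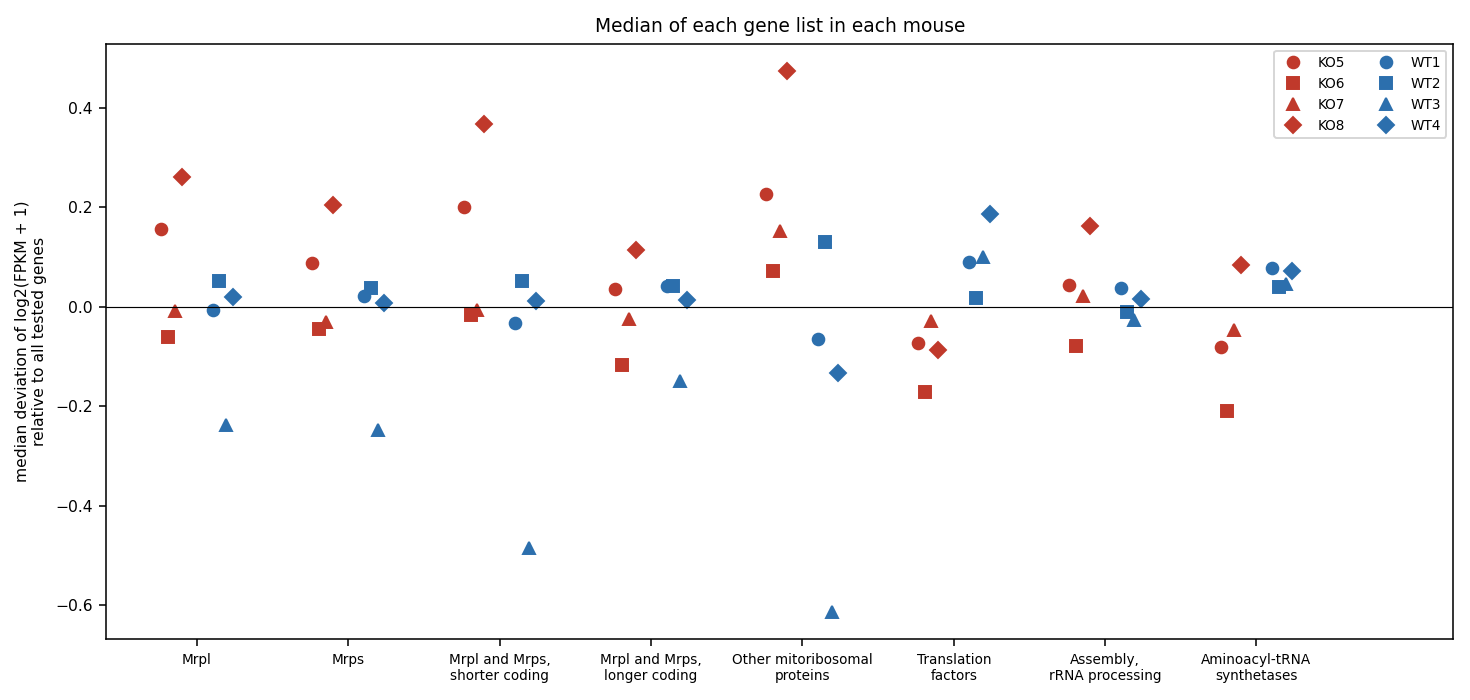
Median deviation of log2(FPKM + 1) of each gene list in each mouse, less the all-gene median of that mouse, with KO mice (red) left of WT mice (blue). For Mrpl and Mrps, WT3 is lowest at -0.24 and -0.25 and KO8 highest at 0.26 and 0.20, while the translation factors run from -0.17 to -0.03 in KO mice and from 0.02 to 0.19 in WT mice.

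The authors' deposited table marks 22 of the 75 members at its own p under 0.05, 9 with a higher and 13 with a lower KO mean, beside 20.2% of all tested genes, and 10 at its p under 0.001, beside 10.8%. The authors' deposited table thus marks Mrpl33 and Mrps5 among others, whose limma adjusted p-values here were 0.501 and 0.484. The sources used here do not name the test behind those marks.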

How the data were processed

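RNA from the gastrocnemius of 8 mice was sequenced as single 50-cycle reads, from libraries of a kit that does not record strand (labels' protocols). TopHat 2.0.9 placed the reads on mm10, and Cufflinks 2.0.2 quantified uniquely mapped ones, per the labels' protocols, while the submitters' processing notes name Cufflinks 2.2.1. The deposited values are FPKM, 1 column per mouse, per the file headers, beside the authors' means and marks of their own p-value. The sources used here do not name the gene annotation. FPKM hold no read totals, so precision rests on the spread between mice, and p-values measure that spread only. Relative depth was read from the spacing of FPKM below 0.3.

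Where a symbol had several rows, the one with the highest mean entered. Genes with a mean of at least 1 FPKM were fitted with limma-trend (limma 3.58.1, R 4.3.3) on log2(FPKM + 1), with genotype as the only term, 2-sided, adjusted by Benjamini-Hochberg over all 11118 genes. Fold changes on this scale understate changes of low genes. Single genes were also given an exact permutation test over 70 labellings of the mice. The fit was tested on simulated data with independent noise per gene and changes larger than those of the members. That test does not bear on changes of the members' size or on shifts shared by genes of a library. Lists are described by counts and medians, without a test. Coding lengths and overlaps come from GENCODE for the same build, and promoters from RefSeq. Positions are given from 1.

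Members and lists were chosen with earlier results of these data known. Named members were the 10 Mrpl and the 8 Mrps genes with the smallest p, the 3 highest and the 2 lowest of each family, the member nearest to each side of 1 FPKM, and Bcat2. From each companion list the 2 genes with the smallest p were named. Others, such as Mrpl24, Mrps36 and Mrps18b, were picked with their values in view. Alternatives were other pseudocounts (0.1 and 0.5), filters (none, and 5 FPKM), scalings, length and GC correction (loess, span 0.5), zeros as missing, array weights, depth as a covariate, summed rows, other subunit placement and left-out mice.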

Additional observations from a re-analysis of the deposited data

Results flagged for a closer look

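Samples that stood far from the rest of their own group of 4 mice were looked for in 68 groups of values, and 6 did so, where chance alone marks about 5% of groups. Among single genes, Mrpl42 had 190.1 FPKM in KO8, against 233 to 237 FPKM in the other KO mice. Mrpl33 had 229 FPKM in WT3, against 454 to 486 FPKM in the other WT mice. Mrpl19 had 8.08 FPKM in KO5, against 2.62 to 3.28 FPKM in the other KO mice. Of the medians, that of the Mrps genes relative to all genes was -0.25 in WT3, against 0.01 to 0.04 in the other WT mice, and that of Mrpl and Mrps genes together was -0.24 in WT3, against 0.01 to 0.05. The Mrpl median minus the Mrps median was -0.029 in WT1, against 0.01 in each of the other WT mice, a gap of a few hundredths on the log2 scale.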

How the results depend on the processing

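No mitoribosomal gene passed the threshold under any of the 20 alternatives of the whole-table fit, and the lowest adjusted p of a member was 0.31, with array weights. Over all genes, the count of 3 past the threshold was 4 to 9 with 1 mouse left out, 11 without both KO6 and WT1, and 1 with zeros as missing. The relative Mrpl and Mrps medians were -0.015 and -0.051 with the length and GC trend removed; the cause was not tested. With 1 mouse left out they ran from 0.08 to 0.19 and from 0.03 to 0.17, and the Mrpl minus Mrps difference from -0.013 to 0.078. Of the named members, 3 changed sign: Mrpl19 (-0.22 without KO5 and up to 0.22 without another mouse), Mrps21 (-0.057 with the length and GC trend removed) and Mrps27 (0.011 with median-ratio scaling). The other 496 values of single genes under alternatives kept their direction and their side of the threshold. FPKM carry no counts, so what read depth limits cannot be given per gene. No paired analysis was possible because the KO columns carry none of the labels' replicate numbers.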
